A study of Mus musculus with 4 samples.

Results

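A set of 40 genes that build and sulfate glycosaminoglycans were followed in C2C12 cells cultured with or without sesaminol. They are 40 of the 52636 genes in the deposited count table, chosen by symbol for what their products do. They comprise 5 genes of the linkage region, 15 of the chondroitin and dermatan branch, 16 of the heparan branch, 2 hyaluronan synthases and 2 sulfotransferases of galactose and N-acetylglucosamine. The rule would take the identifier with most counts for a repeated symbol, but 0 of the 40 symbols were repeated, so no measured value chose among identifiers. The list was drawn up with earlier results of these data known, the fall of Chst13 among them, so counts over it are descriptions.

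C2C12 is an established line of mouse myoblasts, whose cells form multinucleated muscle fibres when they differentiate. The sesaminol group was exposed to the sesame lignan sesaminol at 50 µM while in an adipogenic medium, over a period of up to 8 days, and the control group had the same medium with no sesaminol. Each group had 2 libraries of poly(A)-selected RNA. Since no label says whether the replicates are separate cultures, the p-values cover just the scatter among these 4 libraries, which may be technical. The labels name the cells as myoblasts and do not say how far control cells had differentiated.

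Glycosaminoglycans are long sugar chains that cells attach to proteoglycan core proteins in the Golgi, or, for hyaluronan, spin out at the plasma membrane without a core. Most chains start from the same short linkage sugar sequence on a serine of the core protein, after which the choice of the first hexosamine sends the chain towards chondroitin or heparan sulfate. Sulfotransferases then place sulfate at chosen positions, and the resulting patterns decide which growth factors and matrix proteins bind. In muscle, heparan sulfate is known as a coreceptor for fibroblast and hepatocyte growth factors, and chondroitin sulfate chains have been studied for their part in myoblast fusion.

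Total counts were 15807638 and 24362899 in sesaminol replicates 1 and 2, and 10283135 and 14083165 in control replicates 1 and 2. Sesaminol replicate 2 stood apart, with 1.44% of its counts in mitochondrial genes against 2.95% to 3.36% in the other 3 libraries. That library, with the largest total, also had the most genes with a count, 31253 against 26531 to 27336. The defining muscle genes Myog and Myh3 were abundant in all 4 libraries. In CPM, counts scaled to library size, the adipocyte genes Adipoq, Plin1 and Lep stayed under 3 in each library. Cebpa, which other cells also express, had 47.8 and 55.9 CPM with sesaminol and 35.8 and 24.5 CPM in controls, and Pparg 16.1 and 12.2 CPM against 10.7 and 10.9 CPM. These were the 2 of 6 tested adipocyte markers with a positive log2 fold change, sesaminol over control. Cfd, Fabp4, Plin1 and Lpl had -1.14, -1.09, -0.97 and -0.57, and, Lpl aside, none of these exceeded 3.38 CPM. The median of the 6 was -0.77. Of the 6, 0 had an edgeR adjusted p under 0.05, against 5.95% of all tested genes. The 12 muscle differentiation markers summed to 4569 and 4166 CPM in the sesaminol libraries and to 10912 and 11056 CPM in the controls. Of these markers 10 fell, against 3.24% of all tested genes. Fewer of them fell without control replicate 1 or 2, as did fewer of all tested genes. Of 7 tested smooth muscle and fibroblast markers 4 fell, Acta2, Tagln, Pdgfrb and Col1a1, and the 9 genes of that list summed to 5487 and 5268 CPM with sesaminol and to 9342 and 10429 CPM in controls. The 10 adipocyte markers summed to 88.5 and 86.2 CPM against 79.8 and 67.8 CPM, and the 8 macrophage and endothelial markers to 20.9 and 27.4 CPM against 24.5 and 19.6 CPM. No marker was at 0 in both libraries of a group, and Lep, Adig, Thy1 and Aif1 stayed under 0.4 CPM in each library. In bulk RNA, fewer cells of a type and less RNA per cell cannot be told apart, and the part of these marker differences in the values below was not tested.

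The synthesis genes moved little as a group, with a few large exceptions in sulfation and chain elongation. Of the 40 members, all of which passed the filter on low counts, Chst1 rose and Chst3, Chst13 and Extl1 fell with sesaminol (adjusted p under 0.05 by the quasi-likelihood test of edgeR, with Benjamini-Hochberg adjustment). Over all 18998 tested genes 5.95% passed that test, 2.72% higher and 3.24% lower. The median log2 fold change, sesaminol over control, was 0.10 for the members and 0.02 for all tested genes. Differences were below 1.5-fold in 35 of the 40 members, or 87.5%, and in 77.1% of all tested genes. Both sesaminol libraries lay above both controls for 13 members and below both for 8, against 24.2% and 22.8% of all tested genes (47.0% for both directions together). An unadjusted p under 0.05 was found for 11 members, and for 17.9% of all tested genes.

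**Figure D1:**
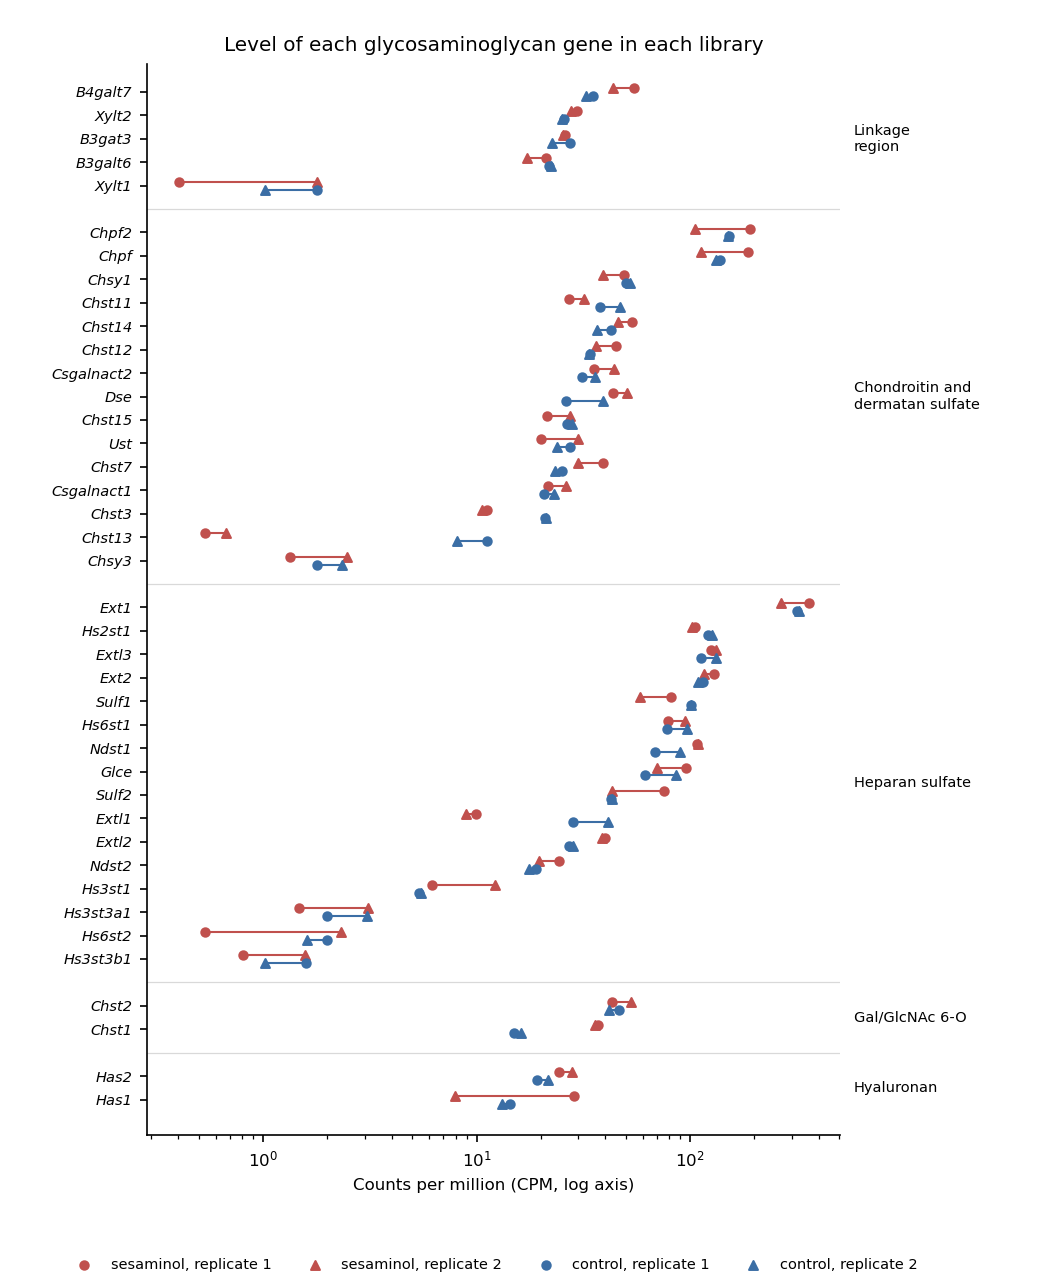
CPM of each of the 40 genes in each library on a log axis, sesaminol above control for each gene, circles for replicate 1 and triangles for replicate 2, with a line joining the libraries of a group. Chst13, Extl1 and Chst3 are the genes whose sesaminol libraries lie well to the left of the controls, Chst1 lies to the right, and Has1 shows the sesaminol libraries on either side of the controls.

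The largest change was in Chst13, one of the enzymes that put sulfate on position 4 of N-acetylgalactosamine in chondroitin. Chst13 (ENSMUSG00000056643, chromosome 6, 90308349 to 90325185, GRCm38) had 0.536 and 0.671 CPM in the sesaminol libraries and 11.2 and 8.11 CPM in the controls. Both sesaminol libraries were far below both controls, on 8 and 18 counts against 113 and 111. It fell by 3.96 ± 0.42 (SE) on the log2 scale, or 15.5-fold (edgeR adjusted p = 0.00154), and the fold was 13.2 to 18.3 when any 1 library was left out.

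Neither relative that carries out the same reaction passed the test. Chst11 had 27.2 and 31.9 CPM with sesaminol and 37.9 and 46.7 CPM in controls, lower in both libraries but with a log2 fold change of -0.52 ± 0.18 (adjusted p = 0.163 in edgeR). Chst12 had 45.2 and 36.2 CPM with sesaminol and 34.0 and 33.7 CPM in controls, higher in both libraries, with a log2 fold change of 0.26 ± 0.18 (adjusted p = 0.519 in edgeR). The difference between these relatives was not itself tested. Leaving out sesaminol replicate 2 gave Chst11 a log2 fold change of -0.64. Where a fit leaves 1 library in a group, here and below, that library is assumed to vary like the other group. P-values of such fits hold no spread within that group.

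On a scale that divides CPM by exon length, so that genes can be set beside each other, the mix of transcripts for these enzymes differed. Chst13 held 1.33% and 1.89% of the family's CPM per kilobase in the sesaminol libraries and 24.2% and 17.7% in the controls. Chst12 held 78.5% and 71.3% with sesaminol and 51.3% and 51.7% in controls, and Chst11 20.2% and 26.8% against 24.5% and 30.6%. Shares for Chst13 and Chst12 did not overlap between groups, and those for Chst11 did. Shares within a family depend on each other, so the larger share of Chst12 follows in part from the smaller share of Chst13. Without division by length the average share of Chst12 was 57.3% with sesaminol and 39.5% in controls, and that of Chst13 was 0.855% and 11.3%.

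Sulfation of chondroitin at position 6 is the work of Chst3 and Chst7, and they stood on opposite sides of the controls. Chst3 (ENSMUSG00000057337, chromosome 10, 60181532 to 60219260, GRCm38) had 11.2 and 10.6 CPM with sesaminol and 20.9 and 21.0 CPM in controls. The libraries of each group were close to each other and the groups far apart, and Chst3 fell by 0.94 ± 0.20 (SE) on the log2 scale, or 1.92-fold (edgeR adjusted p = 0.0266). The call was lost without control replicate 1 or 2 (edgeR adjusted p = 0.214 and 0.254) and with library size as the only scaling (0.0542), while the fold stayed between 1.86 and 2.03 with any 1 library left out.

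Chst7 had 39.2 and 29.97 CPM with sesaminol and 25.2 and 23.4 CPM in controls, above the controls in both libraries. Its log2 fold change of 0.51 ± 0.19 did not pass (edgeR adjusted p = 0.194), and was 0.26 and 0.70 without sesaminol replicates 1 and 2. Chst3 held 8.82% and 10.7% of the CPM per kilobase of the pair with sesaminol and 21.9% and 23.4% in controls, so Chst7 led in every library. Without division by length Chst3 held 22.2% and 26.2% with sesaminol and 45.3% and 47.4% in controls.

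The other gene with a large fall was Extl1, an exostosin-like glycosyltransferase gene of the family that elongates heparan chains. Extl1 (ENSMUSG00000028838, chromosome 4, 134356372 to 134383850, GRCm38) had 9.91 and 8.95 CPM with sesaminol and 28.4 and 41.5 CPM in controls. No sesaminol library came near a control, and Extl1 fell by 1.90 ± 0.23 (SE) on the log2 scale, or 3.72-fold (edgeR adjusted p = 0.00237). The fold ranged from 3.02 to 4.43 with any 1 library left out.

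Ext1, Ext2 and Extl3, of the same exostosin family, belong to the machinery that builds heparan sulfate chains. Ext1, whose product joins that of Ext2 to form the heparan polymerase, had 359 and 266 CPM with sesaminol and 317 and 324 CPM in controls. Ext2 had 129 and 117 CPM against 115 and 109 CPM, and Extl3, which adds the first N-acetylglucosamine of a heparan chain, had 125 and 132 CPM against 112 and 132 CPM. These 3 genes had log2 fold changes from -0.04 to 0.13, and the groups overlapped for Ext1 and Extl3. Extl2, a further exostosin-like gene, had 40.04 and 38.7 CPM with sesaminol and 27.2 and 28.2 CPM in controls. Its log2 fold change of 0.51 ± 0.16 did not pass (edgeR adjusted p = 0.122), and was 0.44 and 0.54 without sesaminol replicates 1 and 2. Extl1 made up 2.37% and 2.46% of the family's CPM per kilobase with sesaminol and 7.46% and 10.1% in controls, and Ext1 46.0% and 39.3% against 44.7% and 42.5%.

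The rise was in Chst1, which puts sulfate on position 6 of galactose, as in keratan sulfate. Chst1 (ENSMUSG00000027221, chromosome 2, 92599707 to 92615250, GRCm38) had 37.2 and 35.7 CPM with sesaminol and 14.9 and 16.2 CPM in controls. Each group was tight and the groups did not overlap. Chst1 rose by 1.22 ± 0.17 (SE) on the log2 scale, or 2.34-fold (edgeR adjusted p = 0.00506), and it stayed past the threshold with any 1 library left out, at 2.22-fold to 2.44-fold. Chst2, which sulfates N-acetylglucosamine, had 42.9 and 52.8 CPM with sesaminol and 46.7 and 41.7 CPM in controls, with overlapping groups and a log2 fold change of 0.12 ± 0.18 (adjusted p = 0.826 in edgeR). Chst1 held 70.3% and 64.9% of the CPM per kilobase of the pair with sesaminol and 46.6% and 51.5% in controls. Without division by length it held 46.4% and 40.3% with sesaminol and 24.2% and 28.0% in controls, so which gene leads the pair depends on the length used.

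**Figure D2:**
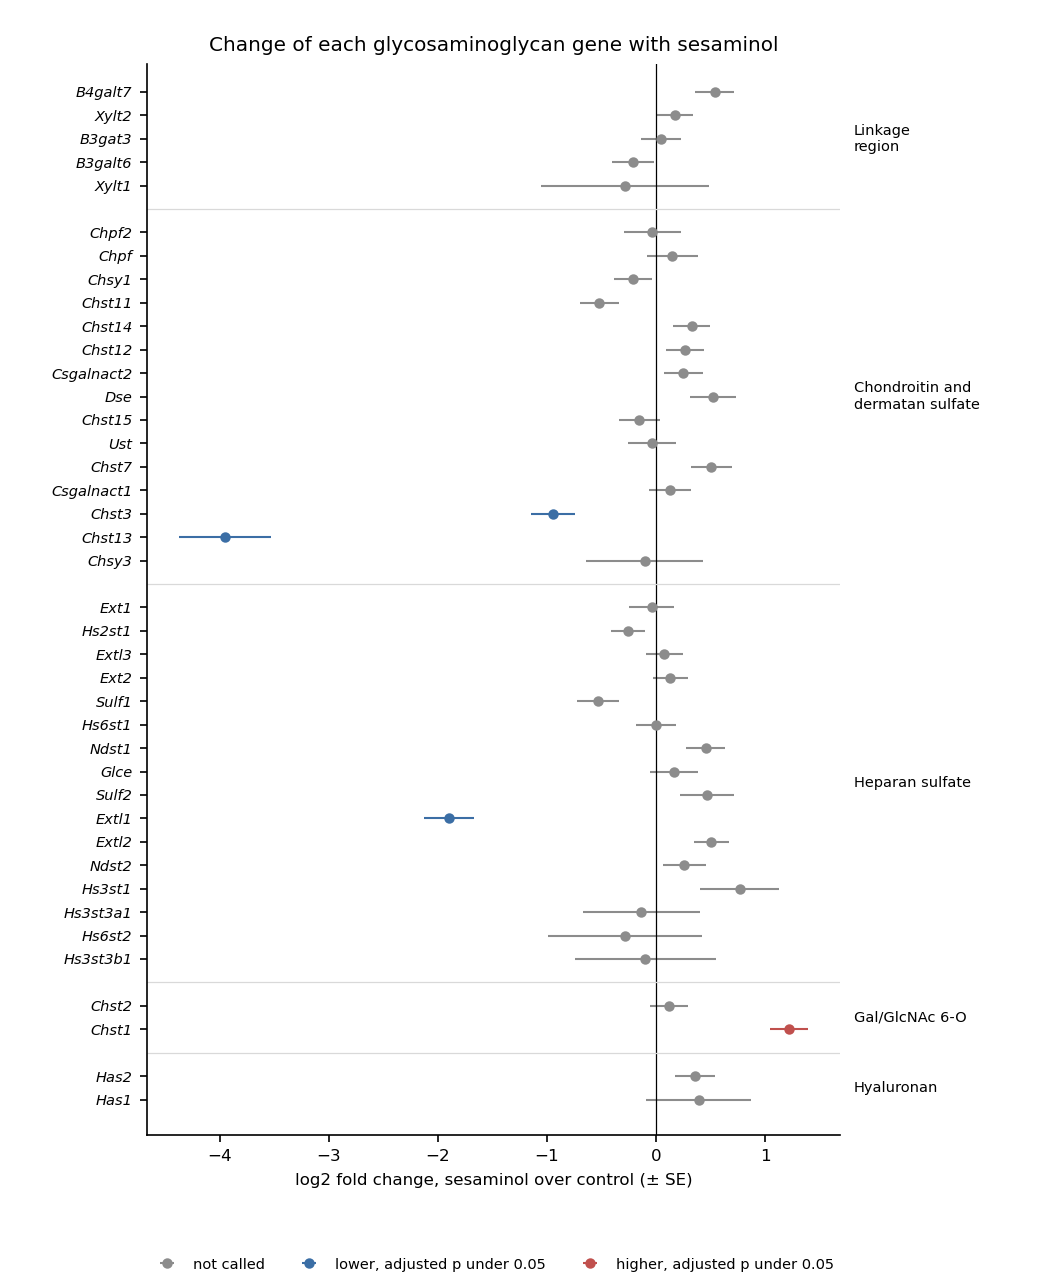
log2 fold change, sesaminol over control, of each of the 40 genes with its SE as a bar, red for the gene called higher, blue for the 3 called lower and grey for the 36 not called. Chst13 lies at -3.96, Extl1 at -1.90, Chst3 at -0.94 and Chst1 at 1.22, and the others lie between -0.53 and 0.77.

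The promoters of the 3 genes that fell are shown because these genes moved the same way, so that their starts can be compared. Each window runs from 250 bases before to 50 bases after the RefSeq start (GRCm38.p6), 5′ to 3′ on the gene's strand, which is the minus strand for all 3. For Extl1, whose annotated gene extends farther upstream, the window is that of the RefSeq start. Capitals mark GGGCGG, the GC box, searched on both strands.
Chst13, chr6:90325136-90325435: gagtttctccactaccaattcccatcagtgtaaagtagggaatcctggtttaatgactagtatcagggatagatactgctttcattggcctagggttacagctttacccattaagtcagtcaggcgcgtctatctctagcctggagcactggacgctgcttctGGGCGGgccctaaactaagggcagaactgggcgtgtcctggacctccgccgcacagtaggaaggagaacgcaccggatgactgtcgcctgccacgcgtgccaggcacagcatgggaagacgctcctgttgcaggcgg
Chst3, chr10:60219211-60219510: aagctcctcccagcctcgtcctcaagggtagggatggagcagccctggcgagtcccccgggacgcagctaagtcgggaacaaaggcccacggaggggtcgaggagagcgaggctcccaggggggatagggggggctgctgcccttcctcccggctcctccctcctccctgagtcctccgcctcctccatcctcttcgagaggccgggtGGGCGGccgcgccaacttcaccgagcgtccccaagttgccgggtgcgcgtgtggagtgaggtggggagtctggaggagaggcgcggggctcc
Extl1, chr4:134372498-134372797: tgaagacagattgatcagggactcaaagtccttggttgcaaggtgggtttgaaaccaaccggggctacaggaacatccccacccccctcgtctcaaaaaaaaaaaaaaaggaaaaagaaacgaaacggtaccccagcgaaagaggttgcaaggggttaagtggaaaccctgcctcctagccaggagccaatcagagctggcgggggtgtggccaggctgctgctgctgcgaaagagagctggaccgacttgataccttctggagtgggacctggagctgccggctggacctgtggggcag
The Chst13 window holds 1 GC box, starting 87 bases before the transcription start, the Chst3 window holds 1 starting 42 bases before it, and the Extl1 window holds 0. None of the 3 windows holds CANNTG, the E-box form that myogenic factors recognise, its CAGCTG form, ACGTG, TGACNNNGC (the core of antioxidant response elements) or the motif of MEF2 factors, each searched on both strands. Every CAGCTG is also a CANNTG. These are matches of letters in 1 window, and no match says nothing about a factor.

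Over all the members, RefSeq windows were found for 32 genes, with 38 windows in all. CANNTG occurred in 19 of these 38 windows, against 72.3% of all 32851 windows in the table, and CAGCTG in 6, against 16.3%. GGGCGG occurred in 24, against 35.7%, ACGTG in 9, against 19.6%, TGACNNNGC in 7, against 12.4%, and the MEF2 motif in 0, against 3.19%. The members' windows were rich in G and C, with a median of 65.2% against 52.7% over all windows and a median of 23 CG dinucleotides against 7. Base composition differs between the members and the table, so these shares are descriptions.

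The linkage region begins with a xylose, added by the products of Xylt1 and Xylt2. Xylt2 was the main gene of the pair, at 29.5 and 27.8 CPM with sesaminol and 25.7 and 25.2 CPM in controls, while Xylt1 had 6 and 48 counts with sesaminol and 18 and 14 in controls. B4galt7, which adds the first galactose, had 54.7 and 43.6 CPM with sesaminol and 35.3 and 32.4 CPM in controls. Both sesaminol libraries were above both controls, but the log2 fold change of 0.54 ± 0.18 did not pass (edgeR adjusted p = 0.139). Without sesaminol replicates 1 and 2 it was 0.33 and 0.70. B3galt6, which adds the second galactose, had 21.2 and 17.3 CPM with sesaminol and 21.8 and 22.4 CPM in controls, and B3gat3, which closes the linkage with glucuronic acid, had 25.8 and 25.5 CPM against 27.4 and 22.5 CPM. Of these 5 genes, 0 passed the edgeR test, against 5.95% of all tested genes, and 1 had an unadjusted p under 0.05, against 17.9%. Summed over the 5, the level was 124 ± 11.05 CPM with sesaminol and 108 ± 5.99 CPM in controls (SD, n = 2).

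Chondroitin chains are started by the products of Csgalnact1 and Csgalnact2 and lengthened by those of Chsy1, Chsy3, Chpf and Chpf2. Csgalnact1 had 21.6 and 26.1 CPM with sesaminol and 20.7 and 23.0 CPM in controls, and Csgalnact2 35.6 and 44.1 CPM against 31.2 and 35.7 CPM. Both overlapped between groups. Among the lengthening genes, Chsy1 had 49.3 and 39.1 CPM with sesaminol and 49.9 and 52.4 CPM in controls, with a log2 fold change of -0.21 ± 0.18. Chpf and Chpf2, which assist the synthases in lengthening the chain, had 186 and 113 CPM and 191 and 105 CPM in sesaminol replicates 1 and 2, and 137 and 132 CPM and 152 and 150 CPM in controls. For both genes the sesaminol libraries lay on either side of the controls. Without sesaminol replicate 1 the log2 fold change of Chpf2 was -0.57, and without sesaminol replicate 2 it was 0.34. Those of Chpf were -0.30 and 0.48.

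Dermatan sulfate arises when Dse turns glucuronic into iduronic acid and Chst14 adds a sulfate beside it. Dse had 43.5 and 50.5 CPM with sesaminol and 26.2 and 39.0 CPM in controls, and Chst14 had 53.7 and 46.2 CPM against 42.8 and 36.8 CPM. Both genes were above the controls in both sesaminol libraries, with log2 fold changes of 0.52 ± 0.21 and 0.33 ± 0.17, and neither passed (edgeR adjusted p = 0.233 and 0.385). The log2 fold change of Dse ran from 0.26 to 0.84 with any 1 library left out. Ust, which sulfates the uronic acid, had 19.95 and 29.8 CPM with sesaminol and 27.4 and 23.9 CPM in controls. Chst15, which adds a second sulfate to an already sulfated N-acetylgalactosamine, had 21.4 and 27.3 CPM against 26.4 and 27.9 CPM. Summed over the 15 genes of the branch, the level was 669 ± 109 CPM with sesaminol and 650 ± 7.50 CPM in controls.

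Heparan chains are trimmed and sulfated in sequence, beginning with Ndst1 and Ndst2, whose products replace acetyl groups by sulfate. Ndst1 had 108 and 109 CPM with sesaminol and 68.6 and 89.5 CPM in controls, above both controls in both libraries. Its log2 fold change was 0.46 ± 0.18 (adjusted p = 0.218 in edgeR), and 0.42 and 0.45 without sesaminol replicates 1 and 2. Ndst2 had 24.4 and 19.7 CPM with sesaminol and 19.1 and 17.7 CPM in controls (edgeR adjusted p = 0.593). Ndst1 held 70.9% and 75.3% of the CPM per kilobase of the pair with sesaminol and 66.4% and 73.5% in controls, so the ranges overlapped.

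Next act the epimerase encoded by Glce and the sulfotransferases encoded by Hs2st1 and Hs6st1. Glce had 95.9 and 70.1 CPM with sesaminol and 61.6 and 86.3 CPM in controls. Hs2st1, which sulfates iduronic acid, had 106 and 102 CPM against 122 and 127 CPM, lower in both libraries with a log2 fold change of -0.26 ± 0.16 (adjusted p = 0.473 in edgeR). Hs6st1, which sulfates glucosamine at position 6, had 79.1 and 94.8 CPM with sesaminol and 77.7 and 96.4 CPM in controls, and a log2 fold change of 0.00 ± 0.18. Its relative Hs6st2 had 8 to 62 counts per library.

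Rarer steps of heparan sulfation were at low levels. Hs3st1, which makes the site that antithrombin binds, had 6.16 and 12.2 CPM with sesaminol and 5.36 and 5.48 CPM in controls. Both sesaminol libraries were above the controls, but they differed 1.97-fold from each other. The log2 fold change of 0.77 ± 0.37 did not pass (edgeR adjusted p = 0.323), and was 1.12 and 0.19 without sesaminol replicates 1 and 2. Hs3st3a1 and Hs3st3b1, neighbours on chromosome 11 whose sulfotransferase domains are nearly identical, had at most 3.09 and 1.59 CPM in any library, and reads could be split between them, so their values are uncertain.

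Sulfate can be taken off heparan sulfate outside the cell by the endosulfatases of Sulf1 and Sulf2. Sulf1 had 81.6 and 58.4 CPM with sesaminol and 101 and 100.5 CPM in controls, below the controls in both libraries. Sulf2 had 75.7 and 43.1 CPM with sesaminol and 42.5 and 43.2 CPM in controls, so that only sesaminol replicate 1 was above them. The log2 fold changes of -0.53 ± 0.19 and 0.47 ± 0.25 did not pass (edgeR adjusted p = 0.179 and 0.388). Sulf1 held 35.9% and 41.3% of the CPM per kilobase of the pair with sesaminol and 55.3% and 54.7% in controls, and the groups did not overlap. Without division by length it held 51.9% and 57.5% with sesaminol and 70.4% and 69.9% in controls, so that the leading gene of the sesaminol libraries depends on the length used. Without sesaminol replicate 1, Sulf1 was lower by 1.78-fold and Sulf2 had a log2 fold change of -0.03. Without sesaminol replicate 2, Sulf2 was higher by 1.77-fold and Sulf1 had a log2 fold change of -0.30. The 16 heparan genes summed to 1161 ± 115 CPM with sesaminol and 1155 ± 73.6 CPM in controls.

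Hyaluronan is made without sulfate or core protein by the synthases of Has1 and Has2. Has2 had 24.2 and 28.1 CPM with sesaminol and 19.2 and 21.7 CPM in controls, above both controls in both libraries, with a log2 fold change of 0.36 ± 0.19 (adjusted p = 0.374 in edgeR). Has1 had 28.5 CPM in sesaminol replicate 1 and 7.90 CPM in sesaminol replicate 2, against 14.3 and 13.1 CPM in controls. The sesaminol libraries stood 3.61-fold apart with the controls between them, and the edgeR fit gave 0.39 ± 0.48 (adjusted p = 0.78). With sesaminol replicate 1 left out the log2 fold change of Has1 was -0.83. With sesaminol replicate 2 left out it was 1.06, so no direction can be given. Has1 held 52.5% and 20.9% of the CPM per kilobase of the pair in sesaminol replicates 1 and 2 and 41.2% and 36.2% in controls. The third synthase gene, Has3, which is not among the 40, had 33.7 and 30.8 CPM with sesaminol and 24.1 and 24.5 CPM in controls (edgeR adjusted p = 0.243).

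**Figure D3:**
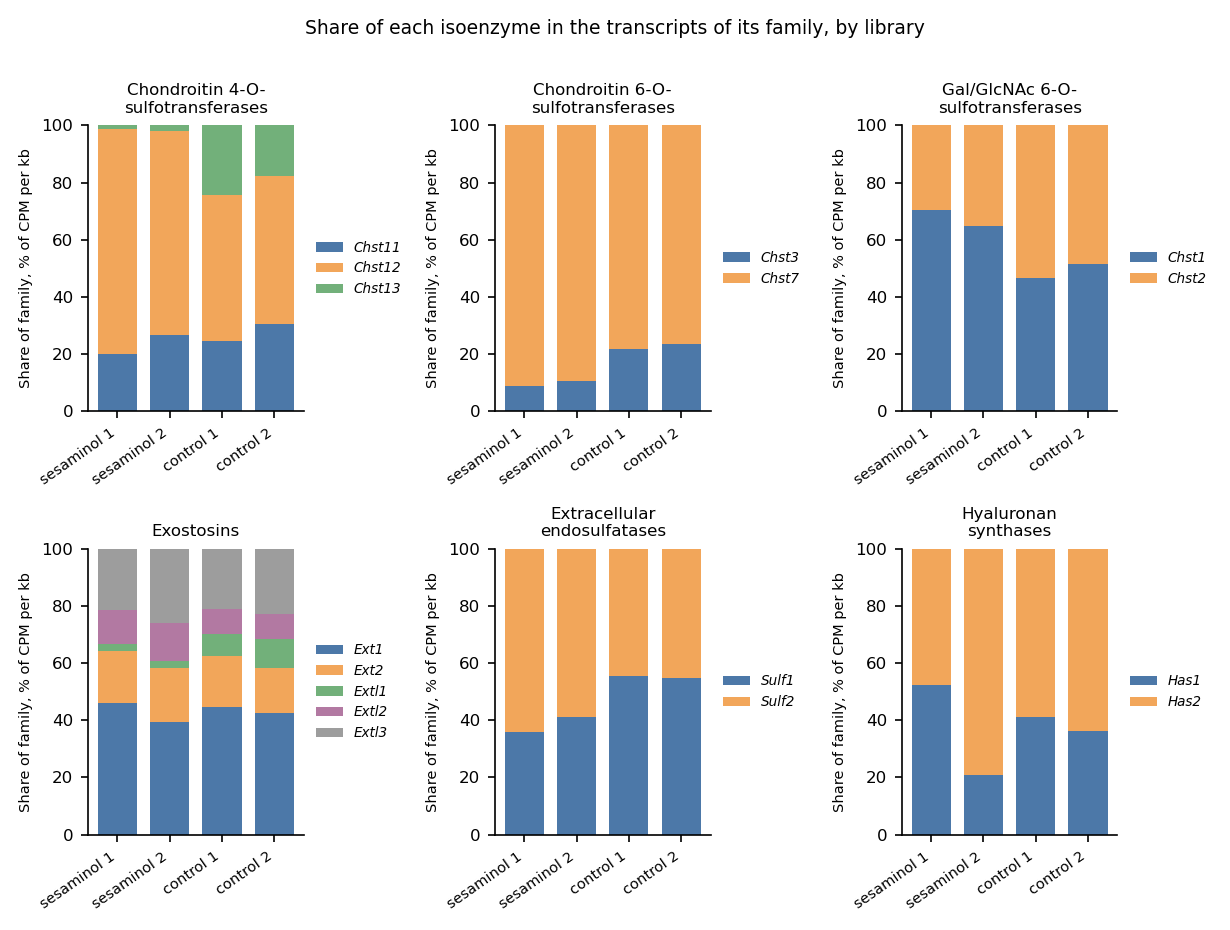
Share of each isoenzyme in the summed CPM per kilobase of exon of its family, in percent, as stacked bars for the 2 sesaminol and the 2 control libraries in 6 families. Chst13 takes 1.33% and 1.89% of the chondroitin 4-O-sulfotransferases with sesaminol and 24.2% and 17.7% in controls, while the hyaluronan synthases differ most between the sesaminol libraries.

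Per kilobase of exon, the 40 genes spanned a wide range. Ext1 had 38.7 ± 8.08 CPM per kilobase with sesaminol and 39.7 ± 0.635 in controls (SD, n = 2), Chpf 38.7 ± 13.5 and 34.9 ± 1.05, and Chpf2 26.5 ± 10.9 and 27.0 ± 0.267. These 3 had the highest group means in both groups. With sesaminol their spreads overlapped, and that of Chpf2 also held Chst14, at 23.9 ± 2.55 CPM per kilobase, and Extl3, at 21.2 ± 0.833. The Chpf2 spread also held the means of Chst12, B4galt7, Ext2, Hs6st1 and Chst7, from 17.2 down to 15.7 CPM per kilobase. Xylt1 was last in both groups, at 0.114 ± 0.102 CPM per kilobase with sesaminol and 0.146 ± 0.0561 in controls, next to Hs6st2 and Hs3st3b1, from which it did not differ beyond the spread with sesaminol. By this level Chst1 ranked 11 of 40 with sesaminol and 27 in controls, Extl1 33 and 17, Chst13 36 and 26, and Chst3 34 and 33. Exon length here is the union of all annotated exons, which understates genes with exons that these cells may not use.

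In the median, the sesaminol libraries differed from each other more than the controls did. For 24 of the 40 members, or 60%, the log2 difference between sesaminol replicates 1 and 2 was larger than the log2 fold change between groups, against 56.5% of all tested genes. The median ratio of the higher to the lower library was 1.24 within the sesaminol group and 1.10 within controls over the members, and 1.27 and 1.16 over all tested genes. Xylt1, Hs6st2, Has1 and Hs3st3a1 differed at least 2-fold between the sesaminol libraries. Has1 was higher in replicate 1, and the others, all at low levels, were higher in replicate 2. For the 4 called genes the corresponding log2 difference, replicate 2 over replicate 1, was -0.06 for Chst1, -0.07 for Chst3, -0.15 for Extl1 and 0.33 for Chst13. Leaving out 1 library changed the count of members called higher from 1 to between 1 and 8, and that of members called lower from 3 to between 2 and 6. The high counts came without a sesaminol library (4 higher and 6 lower without replicate 1, 8 and 4 without replicate 2), where the lone library is assumed to vary like the controls. In those fits 9.36% of all tested genes were higher and 13.3% lower without replicate 1 (22.7% together), and 8.06% and 7.04% without replicate 2 (15.1% together). Without control replicate 1, 1 member was higher and 2 lower, against 0.786% and 1.67% of all tested genes (2.46% together). Without control replicate 2 the counts were also 1 and 2, against 0.847% and 1.33% (2.18% together).

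**Figure D4:**
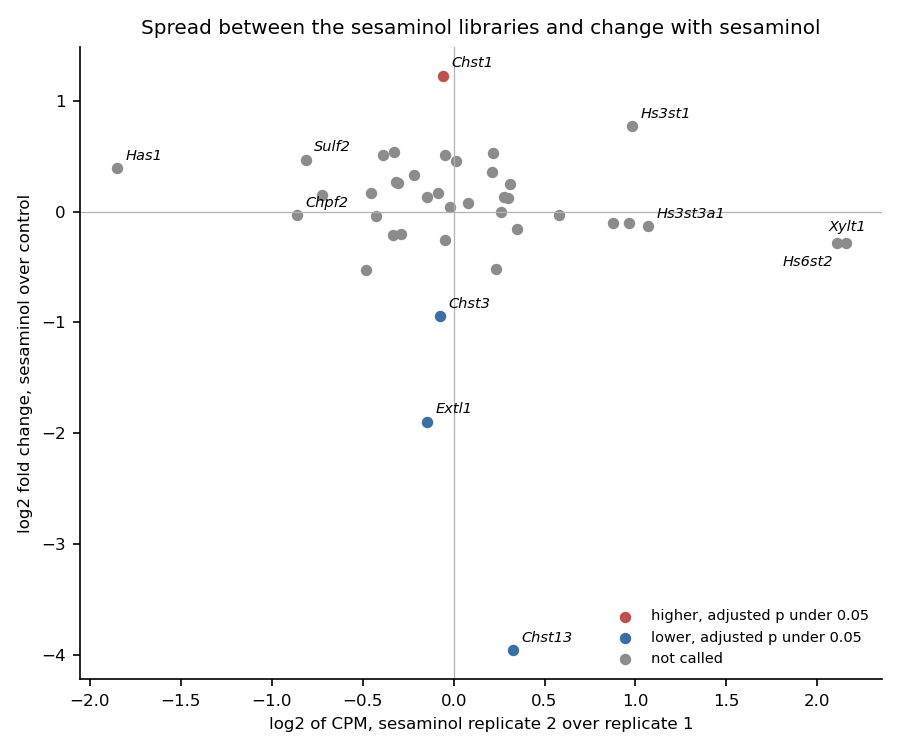
For each of the 40 genes, the log2 ratio of CPM in sesaminol replicate 2 to replicate 1 is on the horizontal axis and the log2 fold change of sesaminol over control on the vertical axis, coloured by call. The 4 called genes lie within 0.33 of 0 on the horizontal axis, and Has1, Xylt1 and Hs6st2 lie farthest from 0 on it.

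Exons of 9 members overlap those of another gene, on the opposite strand except for the microRNAs within Glce and Chpf2. Chpf2 overlaps Smarcd3 (2466 bases, with 93.9% as many counts as Chpf2), and Chsy1 overlaps Gm26827 (148 bases, 85.3%). Sulf2 overlaps Ncoa3 (154 bases, 47.6%), Has2 overlaps Has2os (182 bases, 35.8%) and Hs3st3a1 overlaps F930015N05Rik (1295 bases, 29.3%). Hs6st1 overlaps Gm37335 (447 bases, 22.9%), B4galt7 overlaps Gm15911 (110 bases, 19.1%) and Chst15 overlaps Gm10584 (1206 bases, 2.53%). The strand setting of the counting is not given in the sources used here. Reads within the shared bases of these genes and their partners therefore cannot be told apart. Of the 4 called genes, 0 have such an overlap.

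Of 16 genes listed for the breakdown of glycosaminoglycans in lysosomes, 8 rose and 0 fell (edgeR adjusted p under 0.05, against 2.72% of all tested genes higher). The median log2 fold change was 0.65. Naglu, which removes N-acetylglucosamine from heparan sulfate, had 114 and 127 CPM with sesaminol and 46.9 and 44.3 CPM in controls. Hyal1, a lysosomal hyaluronidase, had 35.4 and 53.0 CPM against 12.4 and 12.9 CPM, and Hyal3, a gene of the same family, 47.4 and 62.1 CPM against 24.8 and 25.7 CPM. For each of these 3 genes the groups did not overlap (edgeR adjusted p from 0.00215 to 0.00922). Both sesaminol libraries were above both controls in 15 of the 16 genes, against 24.2% of all tested genes, and Galns was the exception. Most of the 8 calls were lost without control replicate 1 or 2, where fewer of all tested genes were higher. Without sesaminol replicate 1 or 2 more genes of the list were higher, as were more of all tested genes.

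Of 11 tested genes that act on or bind chains outside the cell, 1 rose and 1 fell, against 2.72% and 3.24% of all tested genes. Hpse, the heparanase that cuts heparan sulfate, had 10.6 and 10.2 CPM with sesaminol and 2.78 and 2.48 CPM in controls, and rose by 1.98 on the log2 scale (adjusted p = 0.00736 in edgeR). Cemip, a hyaluronan-degrading factor, had 6.43 and 10.4 CPM against 19.1 and 19.6 CPM and fell by 1.18 on the log2 scale (adjusted p = 0.0344 in edgeR). The other 9 tested genes of this list of 14, among them the hyaluronan receptor gene Cd44 (400 and 213 CPM with sesaminol, 354 and 387 CPM in controls), did not pass. The Hpse call was lost without control replicate 2, and the Cemip call without control replicate 1 and without control replicate 2. The Cemip call was also lost with library size alone. More genes of the list fell without sesaminol replicate 1 or 2, as did more of all tested genes.

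The supply of donors for sulfation and chain building showed 1 call. Ugdh, which makes the glucuronic acid donor, had 113 and 109 CPM with sesaminol and 69.6 and 72.6 CPM in controls, and rose 1.56-fold, near the threshold (edgeR adjusted p = 0.047). It was the only one of 16 tested genes to pass, against 2.72% of all tested genes higher. None passed with RLE scaling or without either control, and 2 were higher with no filter or with the replicate block. Papss1, which makes the sulfate donor, had 61.5 and 58.9 CPM against 47.9 and 45.3 CPM (edgeR adjusted p = 0.257). Among 12 tested members of the same enzyme families outside the 40, Ndst4 rose, at 9.64 and 12.2 CPM with sesaminol and 4.57 and 4.53 CPM in controls (edgeR adjusted p = 0.037), and that call was also lost without either control, with upper quartile scaling, with library size alone and with limma-voom.

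Of 27 tested core protein genes, which encode the proteins that carry these chains, 2 rose and 1 fell, where 2.72% and 3.24% of all tested genes did. The count that fell was 3 or 4 under most other scalings, filters and tools, 1 with RLE scaling and 2 with library size alone. The transmembrane heparan sulfate proteoglycan genes Sdc3 and Sdc4 had 94.4 and 116 CPM and 199 and 201 CPM with sesaminol, and 55.0 and 64.3 CPM and 106 and 117 CPM in controls (edgeR adjusted p = 0.0308 and 0.0196). Of the same family, Sdc1 had 204 and 123 CPM with sesaminol and 331 and 311 CPM in controls. It was lower in both libraries but did not pass (edgeR adjusted p = 0.0532). Sdc2 had 688 and 776 CPM against 498 and 564 CPM, and did not pass either (edgeR adjusted p = 0.295). Fmod, the keratan sulfate carrier fibromodulin, had 1.34 and 1.42 CPM with sesaminol and 6.65 and 6.28 CPM in controls (edgeR adjusted p = 0.0133). All 3 calls were lost without control replicate 1 and without control replicate 2. Without sesaminol replicate 1 or 2 more genes of the list rose and more fell, as did more of all tested genes. The list's median log2 fold change was 0.11.

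**Figure D5:**
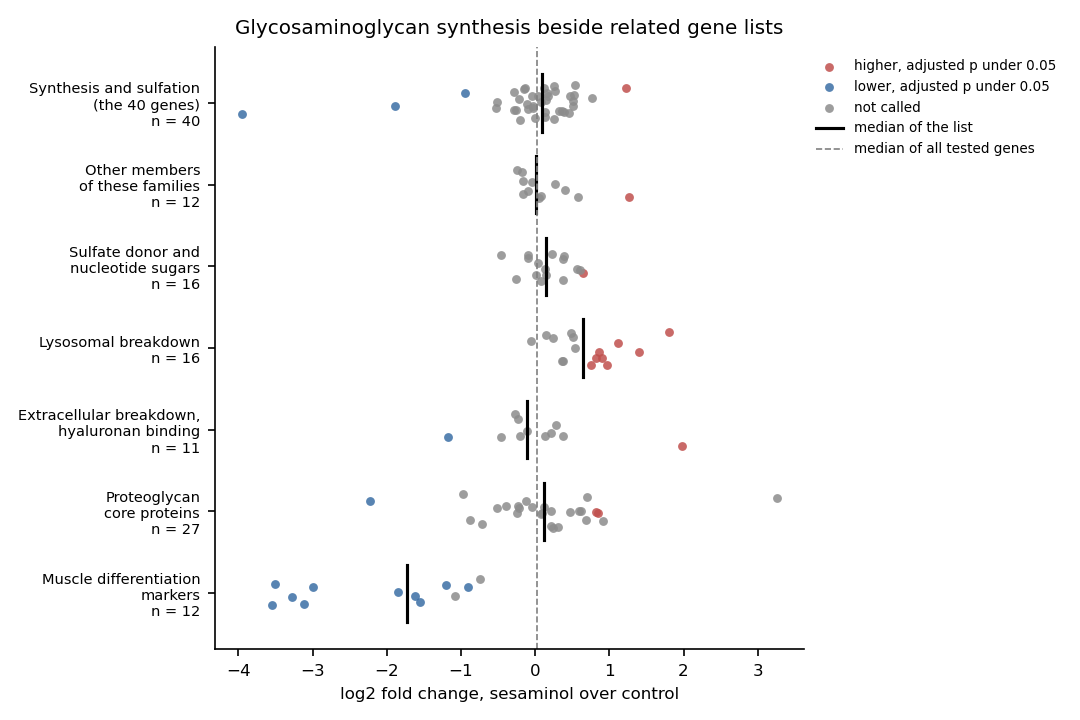
log2 fold change, sesaminol over control, of every tested gene in the 40 synthesis genes and 6 related lists, coloured by call, with the median of each list as a black line and that of all tested genes as a dashed line at 0.02. The lysosomal breakdown list lies to the right with a median of 0.65, the muscle markers to the left with -1.73, and the synthesis genes close to the dashed line with 0.10.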

How the data were processed

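The authors deposited raw read counts per gene for 4 libraries, whole numbers that were not normalized. Per the submitters' processing notes, FastQC, MultiQC, fastp, Picard, featureCounts and edgeR were used with the genome build GRCm38, and per the labels' protocols RNA was poly(A)-selected. For the aligner, the strand setting and the annotation release, the sources used here give nothing. Of values from 1 to 12, 75.8% to 79.6% were even, so both reads of a pair may have been counted, and halved counts were tried.

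The filter filterByExpr, with a minimum count of 10 and a minimum total of 15, left 18998 genes. Libraries were scaled by TMM and compared with glmQLFit and glmQLFTest of edgeR 4.0.16 (R 4.3.3), two-sided, with Benjamini-Hochberg adjustment over all tested genes and a threshold of 0.05. SE is the log2 fold change divided by the square root of F. CPM uses TMM effective library sizes, where 3 counts, the limit a count of 0 allows, are 0.201, 0.112, 0.298 and 0.219 CPM in sesaminol replicates 1 and 2 and control replicates 1 and 2, for counting error only. Gene positions and exon lengths came from GENCODE M21 (GRCm38), matched for 52489 of 52636 identifiers. Promoter windows came from RefSeq.

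The members, lists and tests were chosen with earlier results of these data known. All 40 members could be named, and of each list up to 4 called genes with the smallest adjusted p, of which 1 is not reported here. Has3, Cd44, Papss1, Galns, Sdc1, Sdc2 and the marker genes were named outside that rule, after their values were seen. An exact permutation test of 2 against 2 libraries cannot go below p = 0.333, so none is given. Alternatives were other scalings and filters, DESeq2 1.42.0, limma-voom (limma 3.58.1), the replicate number as a block, thinned and halved counts, and each library left out. No 2 libraries were duplicates (chi-square per degree of freedom 6.95 or more). Figures were drawn with matplotlib 3.10.9.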

Additional observations from a re-analysis of the deposited data

How the results depend on the processing

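The counts of 1 member higher and 3 lower held under other scalings, filters, DESeq2, limma-voom, thinned and halved counts, except that 2 were lower with library size alone. With 1 library left out they ranged from 1 to 8 higher and from 2 to 6 lower. Chst1, Chst13 and Extl1 stayed past the threshold in every alternative run, and Chst3 in all but library size alone and without either control. Same-numbered libraries did not deviate together (r = -0.01 across 18998 genes), so the numbers are not taken as pairs. The replicate block left the member counts at 1 and 3, raised calls over all genes from 1131 to 1875, and gave Hs6st1 a log2 fold change of 0.00065.

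Signs turned only for members that did not pass. Library size alone gave 0.0043 for Chpf2, 0.054 for Ust, 0.015 for Ext1 and 0.078 for Hs6st1. No filter gave 0.019 for Hs6st1, limma-voom -0.029 for Has1, and thinned counts 0.012 for Chpf2 and 0.13 for Hs6st2. With 1 library left out, log2 fold changes ran from -0.033 to 0.22 for Chst2, -0.63 to 0.20 for Chsy3, -0.30 to 0.48 for Chpf, -0.57 to 0.34 for Chpf2 and -0.015 to 0.21 for Csgalnact1. They ran from -0.35 to 0.18 for Ust, -1.75 to 0.34 for Xylt1, -0.10 to 0.18 for B3gat3, -0.31 to 0.17 for Ext1, -0.045 to 0.19 for Extl3 and -0.79 to 0.23 for Hs3st3a1. They ran from -0.67 to 0.24 for Hs3st3b1, -0.16 to 0.16 for Hs6st1, -1.71 to 0.33 for Hs6st2, -0.034 to 0.83 for Sulf2, -0.83 to 1.06 for Has1 and -0.12 to 0.43 for Glce. The cause was not tested. Over all genes 510 and 452 calls were made without control replicates 1 and 2, and 4642 and 2939 without sesaminol replicates 1 and 2. Under 10 counts in a library, as for 3 members, folds are imprecise.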
